A study of Rattus norvegicus with 164 samples.

Results

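Haemoglobin transcripts and Alas2, the gene of the red cell form of 5-aminolevulinate synthase, were followed in bulk RNA of the prelimbic cortex of outbred rats. The 5 genes, Hbbl1, Hbb-b1, Hba-a1, Hba-a2 and Alas2, were taken by symbol from a table of 38354 genes and 130 libraries. They had been selected on their levels in these libraries, among them the wide range of Hbbl1, so their levels and spread are given as a description. Each library is polyA RNA of 1 sample of prelimbic cortex. The libraries fell into 3 series by how the animals are named: 68 by a plain decimal number (decimal), 51 by a code beginning E21DCD, and 11 by such a code that was assigned after a genotype mismatch (reassigned). The labels used here name no treatment, genotype, age or sex for any series, and give the extraction protocol as unknown. Whether each library is a separate animal is taken from the identifiers, so p-values measure the spread between these libraries.

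Haemoglobin is a tetramer that joins alpha-like and beta-like chains, each holding a haem group, and it fills the red cell. Its genes lie in an alpha cluster and a beta cluster, and in rodents each cluster holds several adult copies of similar sequence. Alas2 makes the first and rate-limiting enzyme of haem synthesis in developing red cells, while other cells use Alas1. In brain tissue these RNAs are known from reticulocytes in vessels, and haemoglobin RNA has also been described in neurons and glia. In bulk samples, fewer cells of a type and less RNA per cell cannot be told apart.

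In GRCr8 RefSeq coordinates, Hbbl1 lies on chromosome 1 from 167648859 to 167650235. Hbb-b1 lies beside it from 167636064 to 167643577. The other adult beta genes of the table are Hbb-bs, Hbb-b2 and Hbb, and the 5 table positions span 32.1 kb. Hba-a1 lies on chromosome 10 from 15841724 to 15842580, and Hba-a2 lies 13.4 kb away from 15828291 to 15829138. Alas2 lies on chromosome X from 22890650 to 22914046. All of these but Alas2 are on the minus strand. The positions in the deposited table equalled a RefSeq gene end for 100% of the symbols found there, although the labels do not name the build.

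The 150 bases before the RefSeq start of the globin genes show how alike the promoters of the copies are, and transcript sequences were not compared. They are given 5′ to 3′ on the transcript strand of GRCr8, the strand that reads like the RNA, with matches on either strand to the 6 motifs searched in capitals.
Hbbl1 (chr1:167650236-167650385): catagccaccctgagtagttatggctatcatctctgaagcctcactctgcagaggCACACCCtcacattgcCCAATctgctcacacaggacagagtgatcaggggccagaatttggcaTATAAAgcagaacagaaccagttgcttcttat
Hbb-b2 (chr1:167656964-167657113): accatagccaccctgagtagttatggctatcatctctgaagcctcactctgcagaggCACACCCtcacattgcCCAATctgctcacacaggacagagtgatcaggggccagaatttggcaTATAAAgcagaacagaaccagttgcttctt
Hbb-b1 (chr1:167643521-167643670): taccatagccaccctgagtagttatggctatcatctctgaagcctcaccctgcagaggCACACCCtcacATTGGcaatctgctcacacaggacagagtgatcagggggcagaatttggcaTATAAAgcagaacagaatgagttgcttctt
Hbb (chr1:167663722-167663871): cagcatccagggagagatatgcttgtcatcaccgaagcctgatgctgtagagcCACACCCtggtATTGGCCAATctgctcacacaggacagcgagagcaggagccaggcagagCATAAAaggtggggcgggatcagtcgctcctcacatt
Hba-a1 (chr10:15842581-15842730): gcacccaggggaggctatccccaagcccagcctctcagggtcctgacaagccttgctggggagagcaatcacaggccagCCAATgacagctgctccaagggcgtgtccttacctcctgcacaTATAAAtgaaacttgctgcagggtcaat
Hba-a2 (chr10:15829139-15829288): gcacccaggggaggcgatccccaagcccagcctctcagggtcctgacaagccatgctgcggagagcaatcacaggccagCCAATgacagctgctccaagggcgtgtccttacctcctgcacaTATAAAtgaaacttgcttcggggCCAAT

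The windows of Hbbl1 and Hbb-b2 aligned with 148 identical bases, 0 mismatches and 4 gap columns, the gaps coming from starts annotated at slightly different bases. Hbbl1 and Hbb-b1 shared 92.8% of aligned columns, and Hbbl1 and Hbb shared 68.8%. The 2 alpha windows shared 96.0%. The start used for the Hbb-b1 window lies 57 bases inside the gene's outer RefSeq end, so the window overlaps the gene in part. The promoter table and the gene table use different starts. The start listed for Alas2 lies 4800 bases inside that gene, and its window is not shown.

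CACACCC, the letters of the box bound by the red cell factor KLF1 in adult beta-globin promoters, was found in each of the 4 beta windows shown and in neither alpha window. TATAAA was found in each window shown except that of Hbb, which held CATAAA. Hbbl1 held CCAAT on the transcript strand, from 79 to 75 bases before the start. Hbb-b1 held these letters only on the other strand, from 81 to 77 bases before the start, and the remaining windows held them on the transcript strand. Neither AGATAA nor TGATAA, the letters of the GATA motif, was found in the 6 windows. Over 33469 promoters of the same length, either strand, CACACCC was found in 3.90%, CCAAT in 23.5%, TATAAA in 8.00%, CATAAA in 6.56%, AGATAA in 5.96% and TGATAA in 4.51%. No matches overlapped in the windows shown, and they describe letters, not measured binding.

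Levels are log2 of the deposited estimated counts scaled to 1000000 per library (CPM), plus 1, written log2(CPM + 1). Summed counts ran from 15.1 to 55.95 per library in units of 1000000, with a median of 25.8. Across all libraries, 15150 genes had a mean level of at least 1 and were tested, among them all 5 genes described here. The tissue label held for most libraries, but 11 libraries, all decimal, had a higher mean of striatal neuron genes than of cortical excitatory neuron genes. A further 7 libraries, 1 decimal and 6 E21DCD, had Gad2 levels of 2.37 to 4.27 against at least 5.14 in the remaining ones. The series comparison is given again without the 11 and without these 18.

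The alpha genes gave the most counts. The Hba-a1 level ran from 5.49 through a median of 7.05 to 9.50 in the 68 decimal libraries. It ran from 5.61 through 6.81 to 8.62 in the 51 E21DCD libraries, and from 6.16 through 6.49 to 7.40 in the 11 reassigned libraries. The 3 series overlapped over most of this range.

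Hba-a2, the second adult alpha copy, ran from 4.24 through 5.63 to 8.06 in the decimal libraries. It ran from 4.05 through 5.37 to 7.12 in the E21DCD libraries and from 4.68 through 5.05 to 5.99 in the reassigned libraries. The Hba-a1 level exceeded that of Hba-a2 in 130 of 130 libraries, and the genes have nearly equal spans of 857 and 848 bases. The log2 ratio of Hba-a1 to Hba-a2 ran only from 1.05 through 1.49 to 1.71.

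Hbb-b1, a beta gene of low count, ran from 1.15 through 2.21 to 4.48 in the decimal libraries. It ran from 0.61 through 1.71 to 3.45 in the E21DCD libraries and from 1.35 through 1.98 to 2.19 in the reassigned libraries. Its estimated count was 13 in the library with the fewest and 79.1 at the median. Alas2 was also counted in every library, with 13 to 501 counts. Its level ran from 0.63 through 1.53 to 3.73 in the decimal libraries, from 0.55 through 1.36 to 2.40 in the E21DCD libraries, and from 0.74 through 1.22 to 2.10 in the reassigned libraries.

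Hbbl1 spread over a far wider range in each series. It ran from 0 through 3.89 to 7.23 in the decimal libraries, from 0 through 3.56 to 6.39 in the E21DCD libraries, and from 0.0026 through 3.99 to 4.52 in the reassigned libraries. It was below 1 in 33 libraries, between 1 and 3 in 14, between 3 and 5 in 60, and at 5 or more in 23. The widest step between neighbouring libraries, 0.85, was at the top of the range, so no wider empty stretch divided the levels. This step alone does not show whether the lower values form groups, and only 14 libraries lay between 1 and 3. In the 8 libraries with a count of exactly 0, a count of 0 allows up to 0.0795 to 0.177 CPM, from counting error alone.

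**Figure D1:**
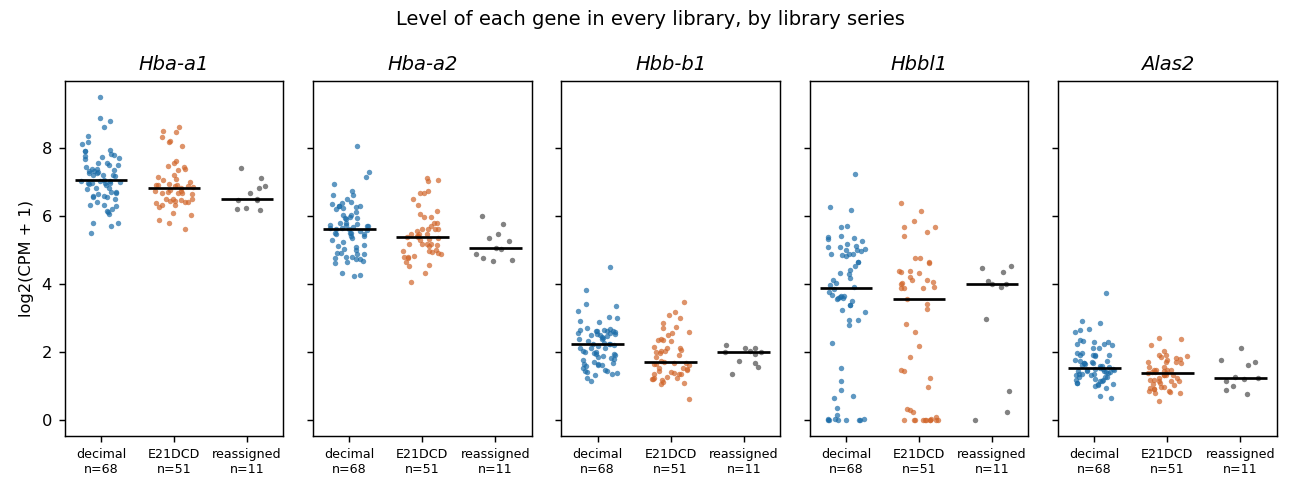
Each point is 1 library, and the vertical axis is the level of the gene as log2(CPM + 1). Columns are the decimal (68), E21DCD (51) and reassigned (11) libraries, and black lines are medians. Hbbl1 spreads from 0 to 7.23, with 33 libraries below 1, while the lowest Hba-a1 value is 5.49.

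The SD over all 130 libraries was 0.74 for Hba-a1, 0.73 for Hba-a2, 0.63 for Hbb-b1 and 0.52 for Alas2. The median SD of tested genes within 0.25 of each gene's mean level was 0.25, 0.23, 0.32 and 0.31, respectively. All 4 thus varied more than most genes of like level, by a smaller margin than Hbbl1, whose SD was 2.03 against 0.29. The decimal library numbered 7 had the highest value of all 5 genes, and of the 130 libraries it was the only one with an Hba-a1 level above 9. Haemoglobin genes together took from 86.6 through 248 to 1403 CPM, the last in that library. The r of the 5 levels with log10 of the summed count was between 0.00 and 0.10 over all libraries, and between -0.23 and 0.01 within E21DCD libraries.

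Hba-a1, Hba-a2, Hbb-b1 and Alas2 rose and fell together from library to library, and Hbbl1 followed them only loosely. Hba-a1 and Hba-a2 were nearly proportional, with Pearson r = 0.98 and Spearman rho = 0.98 over 130 libraries. Alas2 followed Hba-a1 with r = 0.88 and rho = 0.88, and Hba-a2 with r = 0.86 and rho = 0.85. Hbb-b1 followed Hba-a1 with r = 0.79 and rho = 0.75, Hba-a2 with r = 0.79 and rho = 0.75, and Alas2 with r = 0.75 and rho = 0.66. Each of these 6 relations had an adjusted permutation p of 1.43e-05, from the smallest value that 100000 resamples give, with Benjamini-Hochberg adjustment over 10 pairs. Without the 2 libraries farthest from the median of the first gene named in the pair, r stayed between 0.69 and 0.98.

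The relation of Hbbl1 to its neighbour Hbb-b1 was intermediate, with r = 0.58 and rho = 0.62. Its pooled relation to the other 3 genes, with the 33 libraries of an Hbbl1 level below 1 included, was weak. It had r = 0.21 and rho = 0.22 with Hba-a1, r = 0.24 and rho = 0.25 with Hba-a2, and r = 0.25 and rho = 0.22 with Alas2. The adjusted permutation p of these 3 lay between 0.0059 and 0.0147, and r without the 2 farthest libraries was 0.22, 0.24 and 0.24. Within the decimal libraries alone these 3 values were 0.15, 0.17 and 0.19, and the adjusted p was 0.145 to 0.232. Within the E21DCD libraries they were 0.31, 0.35 and 0.33, and within the 11 reassigned libraries they were -0.25, -0.25 and -0.22. The relations between the other 4 genes were 0.75 to 0.98 over all libraries, 0.79 to 0.98 within decimal and 0.69 to 0.98 within E21DCD libraries. Within the 11 reassigned libraries they ran from 0.31 for Hbb-b1 with Alas2 to 0.99 for Hba-a1 with Hba-a2, and that last pair was the only one of the 6 to pass the adjusted threshold. Since the genes had been selected on these libraries, the pair p-values are not independent evidence.

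**Figure D2:**
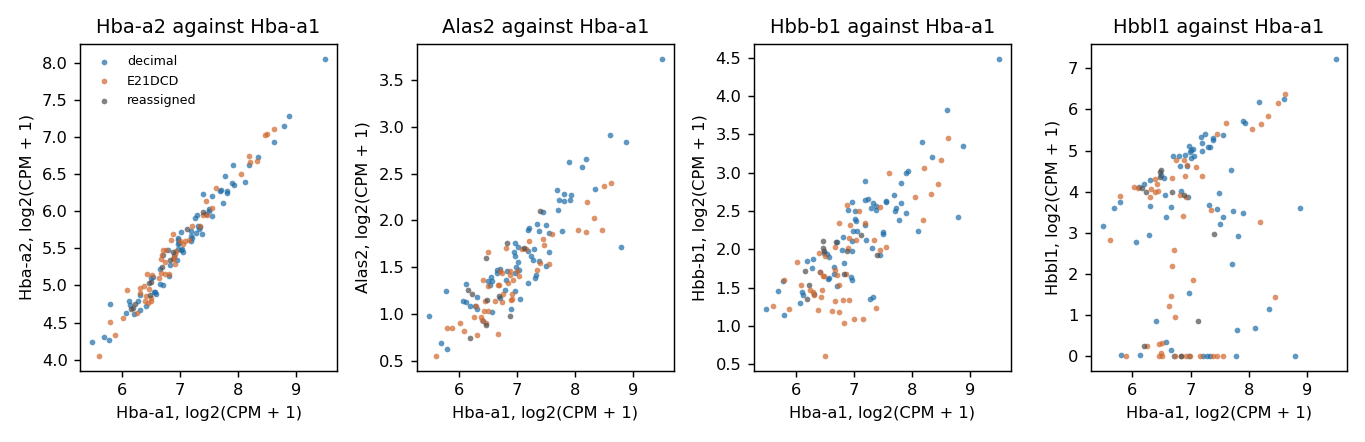
Each panel plots the level of 1 gene against that of Hba-a1, both as log2(CPM + 1), with 1 point per library coloured by series. Hba-a2 (r = 0.98), Alas2 (r = 0.88) and Hbb-b1 (r = 0.79) climb with Hba-a1, and Hbbl1 (r = 0.21) falls into an upper ridge and many libraries near 0.

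Each level was set against the mean of Hbb-b1, Hba-a1 and Hba-a2, leaving out the gene itself. That shared level ran from 3.64 through 4.77 to 7.35. It went with 89.2% of the variance of Hba-a1, 89.2% of that of Hba-a2, 62.97% of that of Hbb-b1 and 76.5% of that of Alas2. With the mean of all 4 other genes, Hbbl1 included, in its place these shares were 44.9% for Hba-a1, 47.2% for Hba-a2, 76.0% for Hbb-b1 and 46.3% for Alas2. For Hbbl1 the first measure went with 12.2%, with a 95% interval of 3.55% to 24.2%. After the shared level was taken out, the SD left was 0.24 for both alpha genes, 0.25 for Alas2 and 0.39 for Hbb-b1, on the log2 scale. For Hbbl1 it was 1.90 of the 2.03 there was at first. The rest for Hbbl1 ran from -4.50 to 1.86, so libraries fell much farther below the line than above it.

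Beta-globin counts showed where the Hbbl1 values lie in relation to the other copies. Of the counts of the 5 adult beta genes, Hbbl1 took from 0% through a median of 18.7% to 41.9%. Hbb, the copy with the most counts, took from 37.6% through 64.4% to 85.8%. Hbb-bs took from 4.71% through 9.43% to 18.2%, and Hbb-b1 from 0.84% through 3.76% to 6.74%. Hbb-b2 took from 0% through 3.52% to 32.4%. For comparison, Hba-a1 took only from 66.8% through 73.6% to 77.0% of the counts of the 3 alpha genes. Hba-a2 took from 22.9% through 25.8% to 31.6%, and Hba-a3 at most 1.88%. Shares within the alpha cluster were thus narrow and those within the beta cluster wide. Hbb-b1 spans 7514 bases against 1377 to 1412 for the other 4 beta genes, and transcript lengths were not used, so its share is not an abundance.

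The share of Hbbl1 left a gap, with no library between 24.4% and 30.7%. In 60 libraries it was above this gap, from 30.7% to 41.9%. In 18 it lay from 10.6% to 24.4%, in 20 from 1.00% to 9.58%, and in 32 below 1%. The 60 libraries above the gap were 33 decimal, 22 E21DCD and 5 reassigned, and the 32 libraries below 1% were 14 decimal, 15 E21DCD and 3 reassigned. Each series thus held both ends of the range.

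Hbb-b2, the copy whose promoter window equals that of Hbbl1, was either at or near 0 or clearly present. Its level was at most 0.012 in 63 libraries and at least 2.10 in 67, with none between. The 63 were 35 decimal, 22 E21DCD and 6 reassigned libraries. Where Hbb-b2 was at or near 0, Hbbl1 was never low: its level ran from 3.17 to 7.23. All 33 libraries with an Hbbl1 level below 1 had Hbb-b2 above its gap. Of the 60 libraries with the highest Hbbl1 shares, 58 had Hbb-b2 at or near 0 and 2 did not. Because Hbb-b2 formed separate clusters, no pooled r is given for it. Hbbl1 levels had no such gap, but Hbbl1 shares did, so the pooled r of Hbbl1 mixes libraries from both sides.

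Hbb also differed in share along this order of libraries. It took from 37.6% to 51.3% of the beta counts in the 60 libraries above the Hbbl1 gap, and from 58.6% to 85.8% in the 32 libraries with Hbbl1 under 1%. The Hba-a1 level overlapped between both sets, from 5.49 to 9.50 in the first and from 5.80 to 8.79 in the second. These bands were drawn from the shares themselves and carry no test. Shares add up to the whole, so a high Hbbl1 share by itself leaves less for Hbb. Where transcripts of the copies are alike, reads can be divided among them by the estimation of counts, and the value of each copy is then uncertain. How alike they are was not measured.

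**Figure D3:**
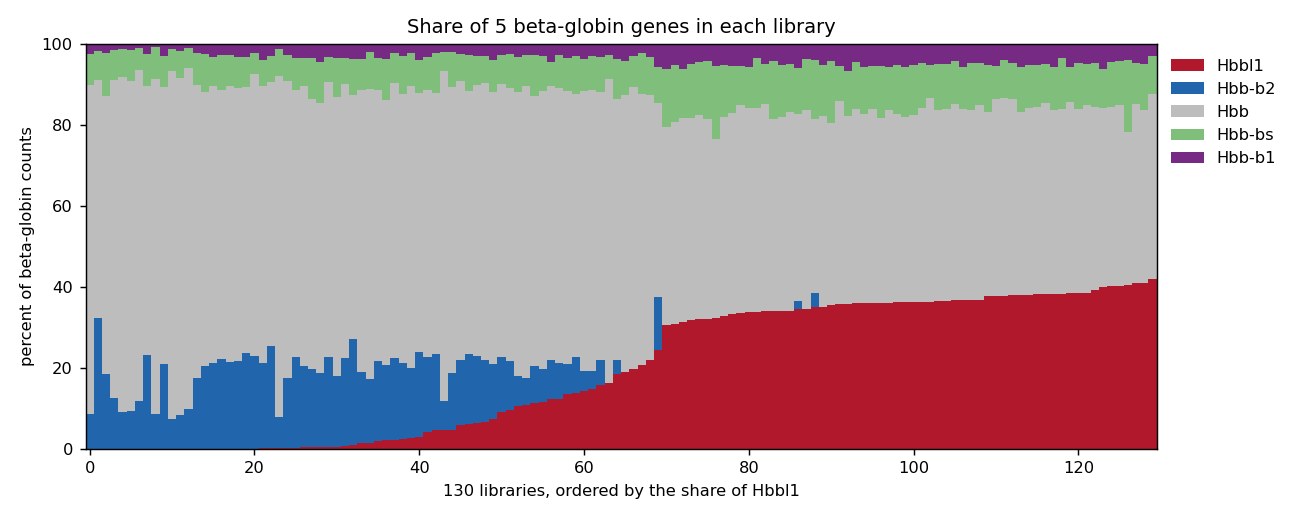
Each column is 1 of 130 libraries, ordered by the share of Hbbl1, and the vertical axis is the percent of the summed counts of 5 beta-globin genes. Hbbl1 is at 30.7% to 41.9% in the 60 libraries on the right, where Hbb-b2 is at or near 0 in 58, and is under 1% in the 32 libraries on the left, all of which have Hbb-b2.

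The sum of the copies was far steadier than Hbbl1 alone. The log2 level of the 5 beta genes summed had an SD of 0.75, close to the 0.74 of the 3 alpha genes summed. The log2 ratio of summed beta to summed alpha counts ran from -1.61 through -1.04 to -0.35, with an SD of 0.23. Summed beta and summed alpha levels had r = 0.95 over 130 libraries, 0.97 within decimal and 0.94 within E21DCD libraries. The level of Hbbl1 and Hbb-b2 added together had an SD of 0.81 and r = 0.83 with Hba-a1, where Hbbl1 alone had an SD of 2.03 and r = 0.21. This added level also had r = 0.93 with Hbb-b1. These values share library totals, and the sums were chosen after the levels had been seen, so they are a description.

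**Figure D4:**
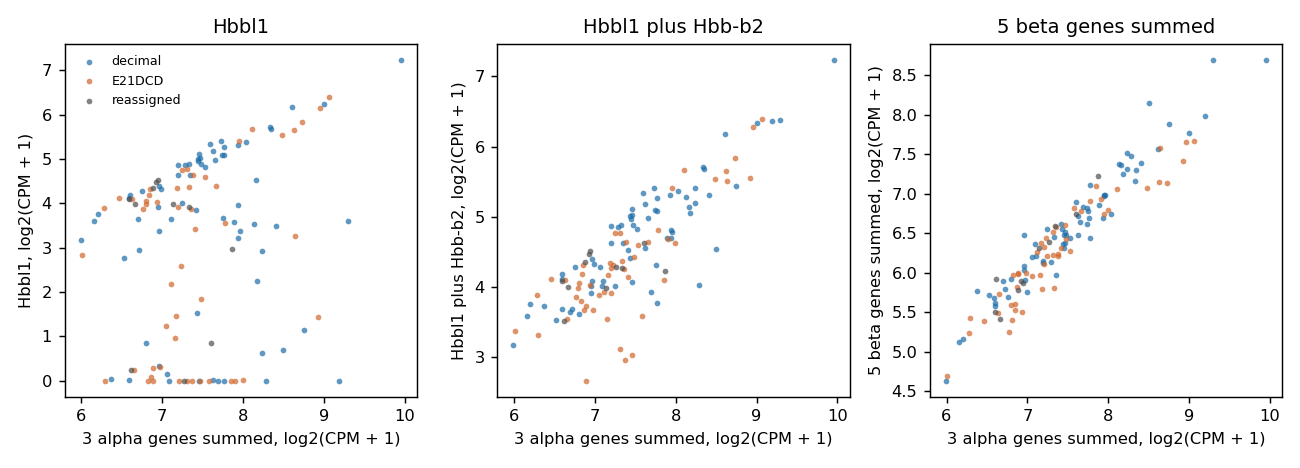
Each point is 1 library, with the summed level of 3 alpha genes on the horizontal axis and, from left to right, Hbbl1, Hbbl1 plus Hbb-b2, and 5 beta genes summed on the vertical axis, all as log2(CPM + 1). The scatter of Hbbl1 alone (SD 2.03) narrows to an SD of 0.81 with Hbb-b2 added, and the sum of all 5 follows the alpha sum with r = 0.95.

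Of 13 haemoglobin rows in the table, 9 lie outside the 5 genes described, and 4 of the 9 had a mean level of at least 1: Hbb, Hbb-bs, Hbb-b2 and Hba-a3. Hbb ran from 3.69 through 5.64 to 8.17, Hbb-bs from 1.69 through 3.07 to 5.67, Hbb-b2 from 0 through 2.35 to 6.37, and Hba-a3 from 0 through 1.03 to 2.60. The embryonic genes Hbe1, Hbe2 and Hbz and the row Hbg1 were at or near 0, and the theta-like gene Hbq1b reached at most 0.43. Adult genes therefore made up nearly all haemoglobin counts.

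The kind of animal name is the only grouping the labels give, so the 2 large series were compared first. Hbb-b1 was higher in decimal than in E21DCD libraries, with means of 2.22 ± 0.63 (SD, n = 68) and 1.87 ± 0.64 (SD, n = 51). The difference was 0.35 with an SE of 0.11 on the log2 scale (limma, adjusted p = 0.0126). Alas2 was higher as well, at 1.66 ± 0.56 (SD, n = 68) against 1.38 ± 0.43 (SD, n = 51), a difference of 0.28 with an SE of 0.09 (limma, adjusted p = 0.0159). Both are differences of log2(CPM + 1), which understates the change of genes with low counts. The series overlapped over most of their range in both genes.

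The other 3 differences did not pass the test. The alpha difference was 0.20 for Hba-a1 (95% interval -0.07 to 0.46, limma, adjusted p = 0.269) and 0.17 for Hba-a2 (-0.09 to 0.43, limma, adjusted p = 0.352). That of Hbbl1 was 0.67 with a wide interval of -0.06 to 1.39 (limma, adjusted p = 0.164). The 2 of 5 genes called stand beside 4412 of 15150 genes tested, or 29.1%, and a share this near the background over so few genes says little about them as a set. The median difference was 0.28 over the 5 genes and 0.01 over all genes tested.

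Without the 11 striatal-like libraries, Hbb-b1 and Alas2 were again called, at 0.35 and 0.29, while 9.9% of all genes were. Without the 18 libraries, the differences of Hba-a1 and Hba-a2 also passed, at 0.37 (limma, adjusted p = 0.0150) and 0.34 (limma, adjusted p = 0.0255), and 34.8% of all genes were called. Without decimal library 7, Hbb-b1 and Alas2 differed by 0.32 and 0.25 and were still called. The series also differed in oligodendrocyte genes, of which 10 of 10 were higher in decimal libraries with a median difference of 0.88, and in microglial genes, of which 6 of 10 were higher with a median of 0.15. Without the 11 libraries 10 oligodendrocyte and 3 microglial genes were higher, and without the 18 these were 10 and 8. Of neuronal lists, 8 of 8 glutamatergic genes were lower (median -0.75) and 6 of 7 striatal genes higher (0.82), and without the 11 libraries 1 was lower and 1 higher. The 11 libraries had been chosen by the means of these same lists, so that fall in calls was built into the choice. Of 12 meningeal fibroblast genes 9 were lower (median -0.48), and of 10 immediate early genes 9 were lower (-0.47), each 5 without the 11. The part of these genes in the haemoglobin difference was not tested.

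Against the E21DCD libraries, the reassigned libraries gave 0 called genes of 15150, or 0%, by limma with an adjusted p under 0.05, and 396 at an unadjusted p under 0.05. The difference was -0.30 for Hba-a1, -0.30 for Hba-a2, 0.00 for Hbb-b1, -0.06 for Alas2 and 0.24 for Hbbl1. With 11 libraries their SEs were 0.16 to 0.66, and both comparisons share the E21DCD libraries.

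Ratios of genes within a library were compared next. The log2 ratio of Hba-a2 to Hbb-b1 was 3.43 ± 0.41 (SD, n = 68) in decimal and 3.61 ± 0.49 (SD, n = 51) in E21DCD libraries, a difference of -0.18. Its permutation p was 0.028, and 0.112 after Benjamini-Hochberg adjustment over 4 ratios. The ratios of Hbbl1 to Hbb-b1, Hba-a1 to Hba-a2 and Alas2 to Hbb-b1 differed by 0.32, 0.03 and -0.07, each with an adjusted permutation p of 0.357. No ratio passed the adjusted threshold of 0.05. With a pseudocount of 0.1 in place of 1, the ratio of Hba-a2 to Hbb-b1 did, at -0.30 (adjusted permutation p = 0.00948). The ratio of Hbbl1 to Hbb-b1 had the widest spread, with a median of 1.94 and a highest value of 3.12. Its low end comes from libraries with Hbbl1 at or near 0 and depends on the pseudocount, reaching -2.42 with 1 and -5.48 with 0.1.

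Genes of the pathways around haemoglobin were compared between decimal and E21DCD libraries. Their counts stand beside 29.1% of all genes called, 9.9% without the 11 libraries and 34.8% without the 18. A share near these says little about a list. Of 22 red cell genes, for the membrane, cytoskeleton and late maturation, 10 had a mean level of at least 1. In decimal libraries 2 of these 10 were higher, 1 was lower and 7 were not called, with a median difference of 0.02. Sptb and Ank1, of the membrane skeleton, differed by 0.13 and 0.09, and Gypc, a glycophorin, by -0.09, none of them called. The highest difference of the list was that of Slc25a37, the mitochondrial iron importer mitoferrin, which rose by 0.18. Without the 11 libraries limma called 0 of the 10, with 3 at an unadjusted p under 0.05. Without the 18, 1 of the 10 was higher and 0 lower.

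Of 8 regulators of red cell formation, 4 were tested and 0 were called by limma, with 1 at an unadjusted p under 0.05. Without the 18 libraries 1 was called, Zfpm1 by 0.13 (limma, adjusted p = 0.0246). Tal1, Lmo2 and Zfpm1 differed by 0.05, -0.05 and 0.04, and Bcl11a, the fetal globin repressor that is also a cortical neuron factor, by -0.07. Of the 10 haem synthesis genes other than Alas2, 3 were higher and 0 lower. Alas1, the enzyme of other tissues, and Alad differed by -0.03 and 0.00 and Abcb10 by -0.05, none of them called. Those called included Fech, which rose by 0.07, and Slc25a38, which rose by 0.08. Without the 11 libraries limma called 0 of 10, with 1 at an unadjusted p under 0.05. Without the 18, 2 of 10 were higher and 0 lower, with the largest difference 0.10 for Slc25a38 (limma, adjusted p = 0.0035).

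Of 8 genes for clearance of haemoglobin and haem, 6 were tested and 0 called by limma, with 1 at an unadjusted p under 0.05. Cd163, the haemoglobin scavenger receptor, and the haem oxygenases Hmox1 and Hmox2 differed by 0.06, 0.09 and -0.01, and Blvra, a biliverdin reductase, by -0.19. Without the 18 libraries 1 was called, Hmox1 by 0.15 (limma, adjusted p = 0.0075). Of 10 iron genes, 9 were tested and 3 were higher: Tf, the iron carrier transferrin made in brain by oligodendrocytes, by 0.78, and the ferritin genes Fth1 and Ftl1 by 0.20 each. Tfrc, the transferrin receptor, differed by 0.01 and Slc40a1, the iron exporter, by -0.11, neither called. Without the 11 libraries 1 of the 9 was higher, Tf by 0.50, and neither ferritin gene was called. Without the 18, 3 were higher, with Tf at 0.62, and 1 was lower, Ireb2 by a difference of -0.07 (limma, adjusted p = 0.0263). Both tested globins outside haemoglobin were lower, neuroglobin (Ngb) by a difference of -0.16 and cytoglobin (Cygb) by one of -0.09, and neither was called without the 11 libraries.

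The defining red cell genes were scarce. The summed level of all 22 red cell genes ran from 9.22 to 10.1 in decimal, 9.86 to 10.2 in E21DCD and 9.89 to 10.1 in reassigned libraries, but the 12 that missed the filter had mean levels of only 0.01 to 0.84. Slc4a1, the anion exchanger band 3, had a median level of 0.22 and reached 1.37. Rhag was at 0 in 113 of 130 libraries. Hemgn had a median of 0.10, and Gata1 was at 0 in 90 libraries. Ahsp, the chaperone of free alpha chains, had a median of 0.81. Slc4a1 had r = 0.58 with Alas2 and 0.46 with Hba-a1, given as a description because its levels rest on few counts.

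White cell and platelet genes were low too. Of 10 neutrophil genes 1 passed the filter, of 8 platelet genes 2, and of 12 lymphocyte genes none (0, by a mean level of at least 1). The summed neutrophil level ran from 1.69 through 2.42 to 3.84 in decimal and from 1.92 through 2.34 to 2.82 in E21DCD libraries. The summed lymphocyte level ran from 0.31 through 0.95 to 1.61 and from 0.32 through 0.95 to 2.17. S100a9, a neutrophil gene with a median of 0.18, had r = 0.48 with Hba-a1, also as a description.

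With library totals and all 130 libraries, the 10 red cell genes that passed the filter did not follow the haemoglobin genes. Their mean had r between -0.10 and 0.15 with the 5 genes, and 0 of 5 Pearson relations had a permutation p under 0.05 before or after adjustment. By rank, Hbb-b1 had rho = 0.18 with a permutation p of 0.0354, or 0.0796 after adjustment. With median-of-ratios scaling in place of library totals, r with Hba-a1 went from -0.10 to 0.23, a change of sign while passing. The relation to Hba-a1 also changed sign while passing without the 18 libraries, so this result depends on the processing. The mean of 4 erythroid regulators did follow 4 of the 5 genes, with r = 0.37 for Alas2, 0.32 for Hba-a2, 0.30 for Hba-a1 and 0.28 for Hbb-b1 (adjusted permutation p = 0.000138 to 0.00492). With Hbbl1 it had r = 0.17 (adjusted permutation p = 0.123). The mean of 10 haem synthesis genes had r of 0.22 to 0.23 with Hbb-b1 and both alpha genes (adjusted permutation p = 0.0266 to 0.0336), 0.18 with Alas2 (adjusted permutation p = 0.0997) and 0.00 with Hbbl1. Within decimal libraries alone, r of the regulators with Alas2 passed, at 0.41, and the rest of these relations did not. Within E21DCD libraries none (0) did, by the adjusted permutation p. Most of the 10 red cell genes, such as Sptb and Ank1, are also expressed by neurons, with median levels of 7.37 and 5.68.

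Means of glial and endothelial lists did follow them, and those of neuronal lists did not. With all 130 libraries, the glutamatergic, striatal and interneuron means had r between -0.11 and 0.10 with the 5 genes, and none passed the adjusted threshold. For the genes other than Hbbl1, the oligodendrocyte mean had r of 0.30 to 0.37 and the mean of hypoxia genes 0.29 to 0.32, all passing. Over 130 libraries, the microglial mean had r = 0.53 with Hba-a1 (rho = 0.44), 0.53 with Hba-a2, 0.55 with Hbb-b1 and 0.55 with Alas2. Each had an adjusted permutation p of 8.18e-05 over 90 relations of 5 genes and 18 lists. The endothelial mean had r = 0.50 with Alas2 (rho = 0.41), 0.42 with Hbb-b1, 0.39 with Hba-a1 and 0.37 with Hba-a2, and the astrocyte mean 0.39 to 0.49. The microglial relation to Hba-a1 was 0.50 within decimal and 0.53 within E21DCD libraries, and it was 0.46 without the 2 libraries farthest from the median of Hba-a1. The endothelial relation to Alas2 was 0.62 within decimal and 0.24 within E21DCD libraries, and the difference was not tested.

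Hbbl1 had lower values with these lists, with r = 0.23 for microglia, 0.21 for endothelium and 0.26 for astrocytes. The endothelial relation passed by r (adjusted permutation p = 0.0465) but not by rank, with rho = 0.14 (adjusted permutation p = 0.21). For oligodendrocytes Hbbl1 had r = 0.16, which did not pass (adjusted permutation p = 0.166). Its largest r was 0.26 with iron handling (adjusted permutation p = 0.0039). The differences from the other genes were not tested. The mean of meningeal fibroblast genes had r between -0.02 and 0.03, that of choroid plexus between 0.04 and 0.14, and that of border macrophages between 0.02 and 0.10, with 0 of 15 relations under 0.05 by the permutation p of r or rho before or after adjustment. In all, 35 of 90 relations passed by the adjusted permutation p of r: 9 for Hbb-b1, 8 for Alas2, 7 for each alpha gene and 4 for Hbbl1. Without the 11 libraries, the mean of glutamatergic genes had r = -0.28 with Hba-a1, against 0.06 with them.

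**Figure D5:**
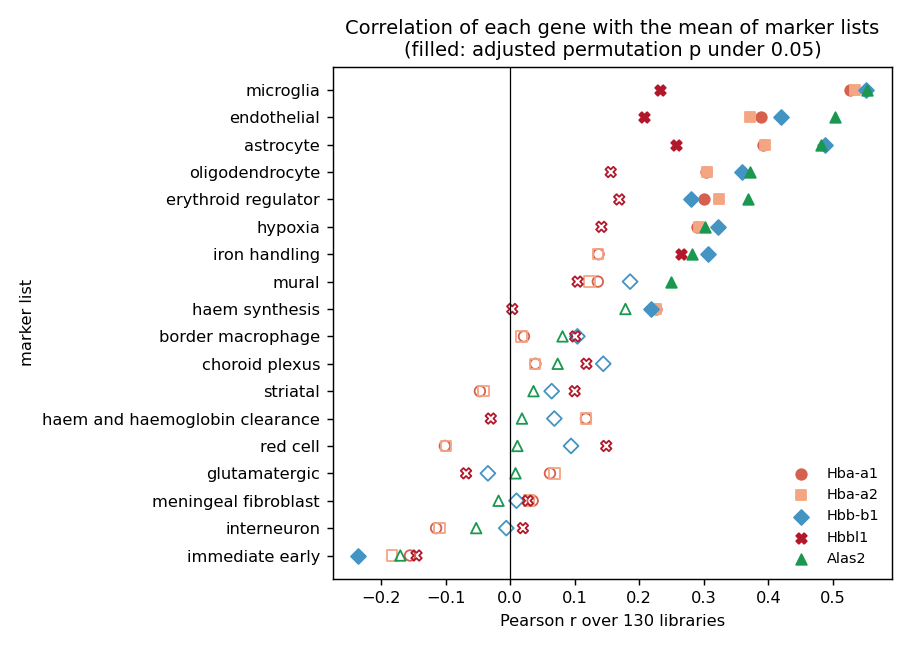
The horizontal axis is Pearson r over 130 libraries between 1 of 5 genes and the mean of a marker list, and lists are on the vertical axis. Filled symbols have an adjusted permutation p under 0.05. The microglial list is at 0.53 to 0.55 for 4 genes and 0.23 for Hbbl1, and the red cell list is at -0.10 to 0.15.

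Single genes outside the haemoglobin family most like the 5 in pattern were ranked by r over 130 libraries among the genes tested. The alpha genes shared the same 5: Cxcl14, a chemokine (r = 0.65 with Hba-a1 and 0.66 with Hba-a2), Fxyd5, Tmem176a, Rtn2 and Ucp2, a mitochondrial carrier, with r of 0.63 to 0.66. For Hbb-b1 they were Pon2 (0.63), Ucp2, S100b, an astrocyte gene, Cxcl14 and Htra1 (each 0.59). For Alas2 they were Pecam1, the endothelial adhesion molecule (0.63), Ucp2 (0.60), Pon2 (0.59), Btbd17 and Anxa3 (each 0.57). For Hbbl1 the values were lower: Insl5 (0.37), Appl2 (0.35), LOC120097951 (0.34), Sox13 and Atg16l2 (each 0.32). Outside the family, then, no gene followed Hbbl1 as closely as the leading genes followed the other 4.

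After the shared level was taken out, the leading genes changed. For Hbbl1 they were Insl5 (r = 0.39), Atg16l2 (0.37) and Tbc1d8b (0.37), and Atg16l2 lies on chromosome 1, 2527 kb from Hbbl1. For Hbb-b1 they were Aqp4, the astrocyte water channel (0.42), Rad51d (0.41) and Acsl3 (0.40). For Alas2 they were Itih5 (0.45), Zfp106 (0.44) and Bmp2k (0.43). For Hba-a1 they were Ankle2 (-0.43), Serbp1 (-0.40) and LOC134485873 (-0.40), and for Hba-a2 Tlk2 (-0.41), Dync2i1 (-0.40) and Otub1 (0.40). Being the top of 15150 genes, these r values carry no test.

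Of 66 rows within 500 kb of Hbbl1, 6 had a mean level of at least 1, of which 4 were beta-globin genes. The others, Trim34 and Trim5, had r of 0.20 and 0.18 with Hbbl1. Of 28 tested genes other than globins within 500 kb of Hba-a1, r ran from -0.50 to 0.49 and none (0) reached 0.5 in size. The 4 tested neighbours of Alas2 had r from -0.31 to -0.16.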

How the data were processed

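PolyA RNA of prelimbic cortex was sequenced. Counts were estimated with kallisto 0.48, per the submitters' processing notes. The deposited unit is log2 of the estimated count plus 1, unscaled. 34 of 164 labelled samples had no column and were not used. Values were returned to the linear scale, scaled to 1000000 per library and turned to log2(value + 1). Because the unit is log2, count models were not used. Summed counts per library (15.1 to 55.95, in units of 1000000) limit the precision of low genes.

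Series were compared with limma 3.58.1 (R 4.3.3, 3 series means, trended variance, genes with mean level of at least 1, Benjamini-Hochberg adjustment). Correlations and ratios used two-sided permutation tests with 100000 resamples. Both were tested on simulated data. List means average standardized genes, and lists with fewer than 3 tested genes had none. Genes named are the 5, haemoglobin rows by symbol prefix (without Hbegf, a growth factor gene), top correlates, neighbours, and the first and extreme genes of lists, of which some are not reported here. White cell genes, defining red cell genes and sums of copies were named after their values were seen. The members and lists were chosen with earlier results of these data known. Promoters are from RefSeq (GRCr8), aligned with biopython 1.88. Alternatives were other scaling, pseudocount, filter and covariate choices, and libraries left out.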

Additional observations from a re-analysis of the deposited data

How the results depend on the processing

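Series differences, ratios, pairs, shared levels and list relations were recomputed with median-of-ratios scaling, a pseudocount of 0.1, library totals without haemoglobin genes, and without 11 or 18 libraries, and the series comparisons also without a filter, with summed count as a covariate, with E21DCD and reassigned libraries pooled, and with a robust fit without trend. Leaving out decimal replicate 7 was added after the data were seen. It gave 0.25 for Alas2, 0.32 for Hbb-b1, 0.16 for Hba-a1, 0.13 for Hba-a2, 0.61 for Hbbl1 and 4367 called genes. Hbb-b1 and Alas2 were called under each of these settings.

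Between decimal and E21DCD libraries, Hba-a1 (0.37) and Hba-a2 (0.34) passed only without the 18 libraries, and the genes called fell from 4412 to 1500 without the 11. Reassigned libraries gave 8 called genes without a filter. The ratio of Hba-a2 to Hbb-b1 passed with a pseudocount of 0.1, at -0.30. For pairs, r of Hbbl1 with Hba-a1 was 0.16 with that pseudocount. Within decimal libraries r of Hbbl1 lost the threshold with Hba-a1 (0.15), Hba-a2 (0.17) and Alas2 (0.19). Within the 11 reassigned libraries it was 0.40 with Hbb-b1, -0.25 with Hba-a1, -0.25 with Hba-a2 and -0.22 with Alas2. There Hbb-b1 had 0.53 with Hba-a1, 0.54 with Hba-a2 and 0.31 with Alas2, and Alas2 had 0.70 with Hba-a1 and 0.72 with Hba-a2, below the threshold with fewer libraries.

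With the shared level built from all 4 other genes, Hbbl1 included, its share of variance was 76.0% for Hbb-b1, 44.9% for Hba-a1, 47.2% for Hba-a2 and 46.3% for Alas2. Of 450 list relations recomputed, 406 kept side and direction, 30 came to pass, 6 no longer passed and 8 changed sign while passing. The red cell list had r of 0.23 with Hba-a1 and 0.23 with Hba-a2 under median-of-ratios scaling and 0.21 with Hba-a1 without 18 libraries. The glutamatergic list had -0.28 with Hba-a1 and -0.26 with Hba-a2 without 11 libraries, and -0.26, -0.25 and, with Alas2, -0.26 without 18. The cause was not tested for any of these.

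No batch, sex or date was used, alike transcripts of the copies can exchange counts, which was not measured, and depth limits genes with counts as low as the 13 of Hbb-b1 and Alas2.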
